A study of Homo sapiens with 18 samples.

Results

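The 10 genes described here, CD40, CD69, CD70, CD80, CD83, CD86, CD44, ICAM1, FAS and SLAMF1, encode surface molecules through which B cells receive help, signal their activation or costimulate T cells. The set was given as a list of symbols, which matched 10 of the 60483 gene identifiers in the deposited counts, and each of the 10 was among the 16122 genes tested after low counts were filtered out. RNA sequencing had been run on HAIR-M, a human cell line with the disease label MZL (marginal zone lymphoma, which arises from mature B cells), grown in medium with fetal bovine serum and antibiotics. The groups were 5 nM copanlisib, an inhibitor of class I phosphoinositide 3-kinases (PI3K), for 4, 8 or 12 h, and the solvent DMSO for the same times, with 3 libraries in each of 6 groups, 18 in all. The labels do not say that replicates were separate cultures, so p-values reflect no more than library-to-library spread, which may be technical. In bulk RNA, fewer cells that express a gene and less RNA per cell cannot be told apart.

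Resting B cells carry few costimulatory molecules, and signals from the antigen receptor, toll-like receptors or T cells raise them. CD40, a receptor of the TNF receptor family, binds CD40 ligand on helper T cells and signals through TRAF adaptors to NF-kB. CD80 and CD86 then engage CD28 and CTLA4 on T cells, while ICAM1 holds the cells together by binding the integrin LFA-1. The PI3K pathway runs downstream of the antigen receptor and is a drug target in B cell lymphoma.

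Between 13587017 and 25566761 reads per library were counted on genes. Of the copanlisib libraries at 4 h, replicates 1 and 2 were unlike the rest: 8.73% and 5.22% of their reads were unmapped, against 1.74% to 2.82% in 16 others, and mitochondrial genes held 12.4% and 12.6% of their gene reads, against 9.07% to 10.5%. Their distance to replicate 3, as chi-square per gene (near 1 for sampling noise), was 19.9 and 15.8, while 16 further replicate pairs had 1.52 to 2.94. When all genes were cut into 5 equal bins by GC content, the median log2 fold change at 4 h was 0.12 in the lowest and −0.21 in the highest bin, but −0.035 and 0.0029 with replicate 3 standing alone for copanlisib. The 4 h values of the 10 genes are therefore given with all 3 copanlisib libraries and with replicate 3 alone. B cell markers fitted the label, and 2 genes chosen from the marker list after their values were seen are given first. CD79A, a chain of the antigen receptor complex, averaged 373 ± 37.6, 431 ± 7.54 and 476 ± 9.66 CPM (depth-normalised read counts) with copanlisib at 4, 8 and 12 h, against 376 ± 11.9, 360.4 ± 12.2 and 335 ± 10.0 CPM with DMSO (SD, n = 3 each). PAX5, a B cell transcription factor, averaged 299.9 ± 18.9, 414 ± 11.8 and 465 ± 15.0 CPM with copanlisib, against 263 ± 2.43, 314 ± 6.46 and 336 ± 9.51 CPM with DMSO (SD, n = 3 each). All 7 B cell markers together summed to between 1620 and 2318 CPM in each library. At 4 h 2 of the 7 rose with copanlisib and 2 fell (edgeR adjusted p under 0.05), against 17.7% and 20.7% of all genes. At 8 h 5 rose and none fell, against 14.8% and 18.3%, and at 12 h 6 rose and none fell, against 13.8% and 16.5%. The part of these markers in the later results was not tested. Of the 10 T and NK cell markers, CD3D, CD3G and CD28 had no read in any library, and the list summed to at most 19.9 CPM, most of it from NKG7. The 10 myeloid and dendritic cell markers summed to at most 7.09 CPM, and the 10 retina markers, checked because the labels' protocols speak of retinas, to at most 10.5 CPM, most of it from PDE6B.

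Levels per exon length spanned a wide range, with CD40 highest. As RPKM (CPM per kilobase of annotated exon) over all 18 libraries, CD40 had a median of 169 and a range of 148 to 202, followed by CD70 at 142 (111 to 186). SLAMF1 had a median of 100.4 RPKM (72.7 to 133), ICAM1 87.8 (67.1 to 127) and CD83 77.8 (62.0 to 106). The B7 ligands CD80 and CD86 followed at 55.9 (50.1 to 71.5) and 37.6 RPKM (29.5 to 41.6), and FAS at 27.0 (24.8 to 38.3). CD69 at 13.2 (10.5 to 16.6) and CD44 at 9.65 RPKM (7.59 to 11.7) were the lowest. CD80 did not overlap CD86 in this order, nor FAS CD69, while each of the other neighbours overlapped in range. The exon length of CD44, 10004 bases, sums all its annotated exons, many of which are variant exons, so its level per length is a low estimate. Each of the 10 genes had an exon length above that of its longest transcript. The lengths were 2832 against 1676 bases for CD69, 1532 against 913 for CD70 and 4253 against 2563 for FAS, but 4269 against 4006 for SLAMF1. The order of levels could therefore depend on the length used.

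Each of the 10 genes had estimated differences between copanlisib and DMSO of less than 1.5-fold, some up and some down. After 4 h, 5 of them fell (CD40, CD70, CD83, ICAM1 and SLAMF1), 3 rose (CD80, CD86 and FAS) and 2 did not pass (CD69 and CD44), by edgeR's quasi-likelihood test with an adjusted p under 0.05. In the same comparison 38.4% of all 16122 genes were called, 20.7% lower and 17.7% higher. Without replicates 1 and 2 of copanlisib at 4 h, 4 of the 10 passed: ICAM1, SLAMF1 and CD83 fell and CD86 rose. In that fit 22.2% of the 17007 genes tested were called, 8.86% higher and 13.4% lower. After 8 h, SLAMF1, CD44 and ICAM1 fell and CD80 rose, 4 of 10 against 33.1% of all genes (14.8% higher, 18.3% lower). After 12 h, CD80, CD69, CD40 and CD83 rose and CD44, SLAMF1 and ICAM1 fell, 7 of 10 against 30.3% of all genes (13.8% higher, 16.5% lower). CD80, ICAM1 and SLAMF1 were called at each of the 3 times. CD70 and FAS were called only at 4 h, where their log2 fold changes were −0.13 and 0.012 with replicate 3 alone. The 3 copanlisib libraries did not overlap the 3 DMSO libraries in 6, 4 and 8 of the 10 genes at 4, 8 and 12 h, against 38.9%, 50.7% and 46% of all genes. The median log2 fold change of the 10 genes was −0.12, −0.00076 and 0.11 at 4, 8 and 12 h, and that of all genes 0.0095, 0.015 and 0.0044.

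**Figure D1:**
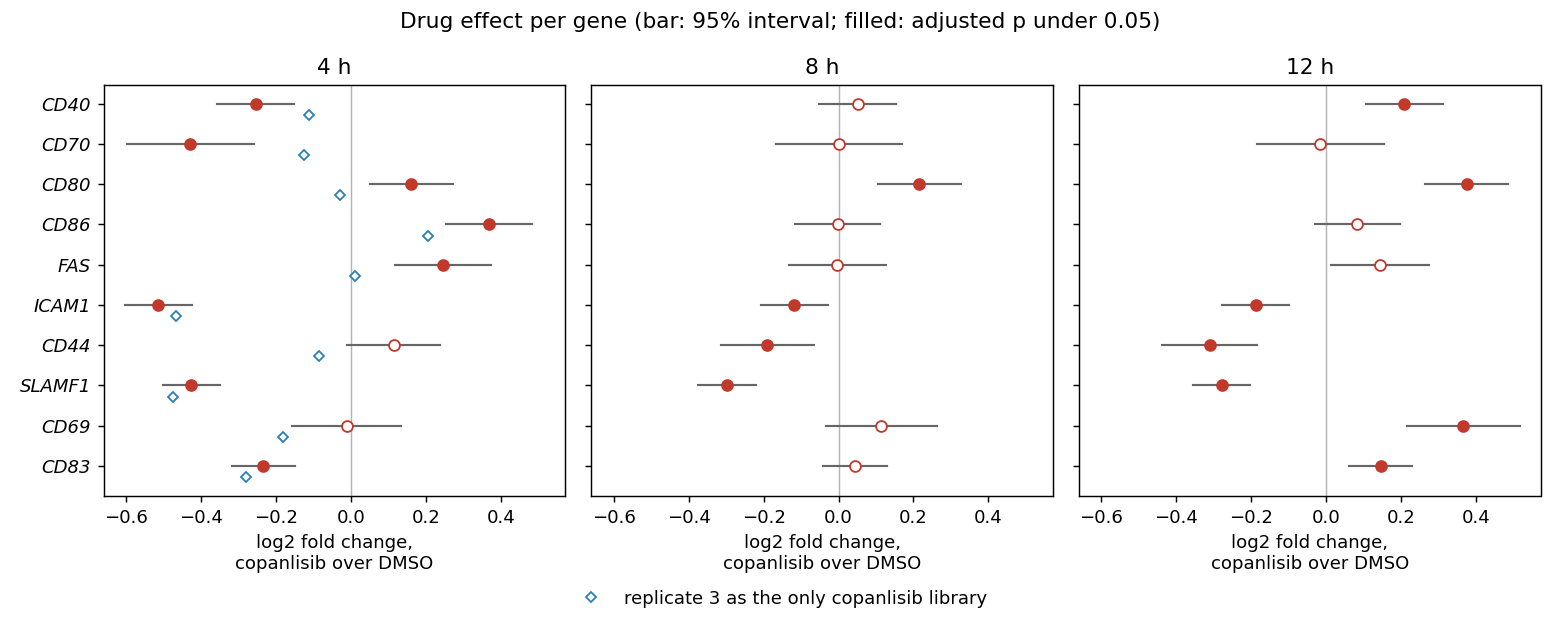
Log2 fold change of copanlisib over DMSO (x axis) for each of the 10 genes (y axis) at 4, 8 and 12 h, with 95% intervals as bars. Filled circles passed the test, open circles did not, and open diamonds at 4 h have replicate 3 alone. CD80 lies right of 0 and SLAMF1 and ICAM1 lie left of 0 at each time, while CD40, CD83, CD44 and CD69 change sides between 4 and 12 h, CD69 and CD44 without a call at 4 h.

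**Figure D2:**
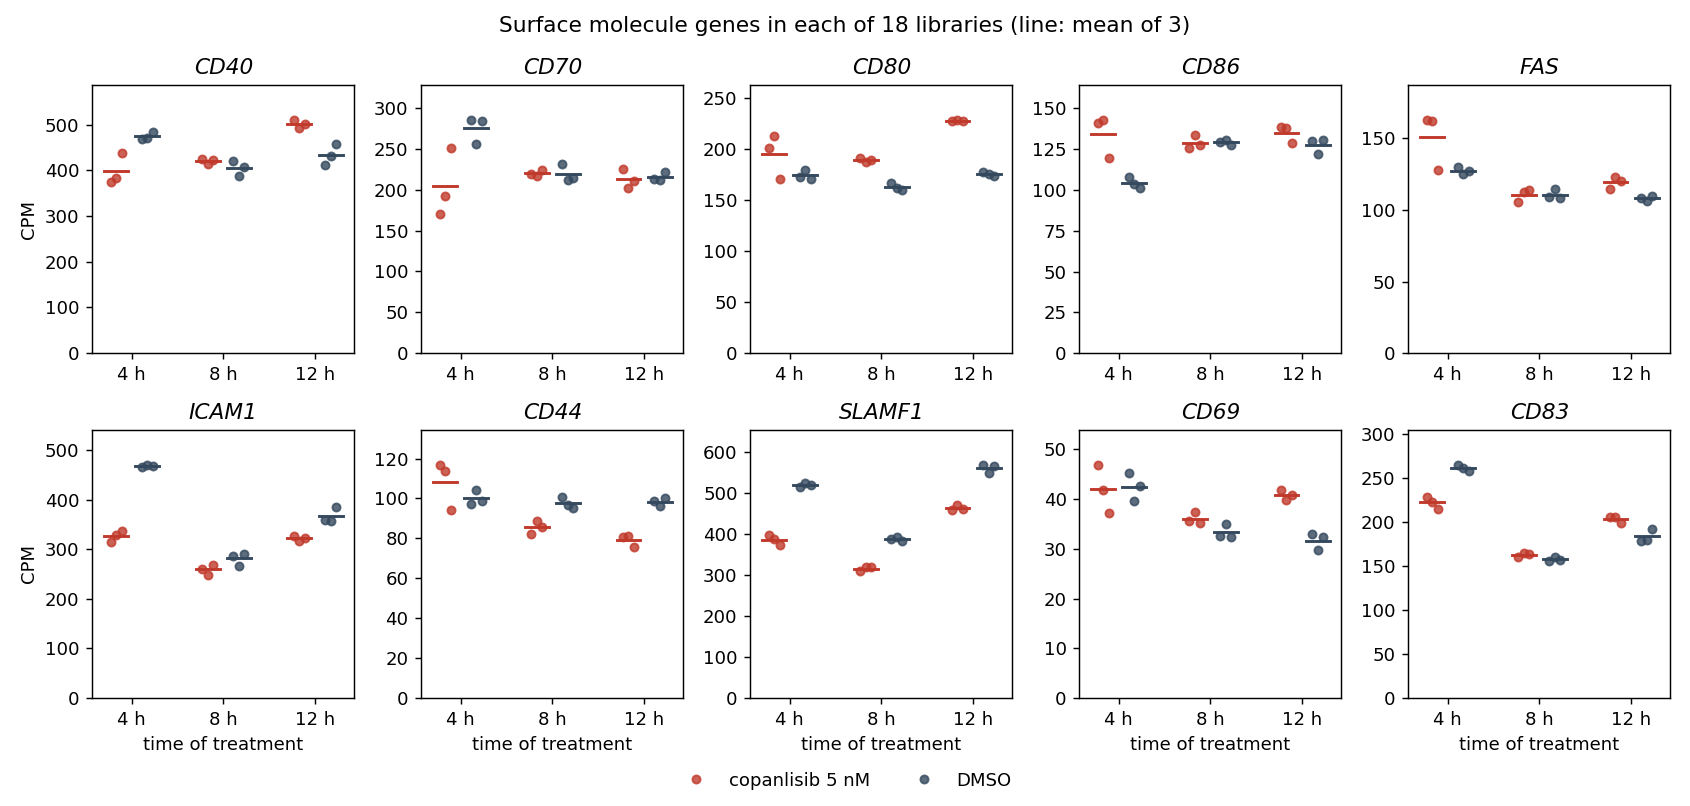
CPM (y axis) of each gene in each of the 18 libraries by time (x axis), copanlisib in red and DMSO in dark blue, with a line at the mean of 3. At 4 h replicate 3 of copanlisib stands away from the other two in CD40, CD70, CD80, CD86, FAS and CD44, and at 12 h the groups are separate for 8 of the 10 genes.

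Sequences before RefSeq start sites were searched for factor motifs because ICAM1 and CD83 are known NF-kB targets and fell at 4 h. The RefSeq promoter table (GRCh38.p14) held 11 start windows for 7 of the genes, and CD40, CD69 and CD70 were not in it. In the 250 bases before each start, both strands were searched. Some windows lay within annotated exons: all 250 bases for ICAM1, CD44 and SLAMF1, and 131 in 1 window of CD83. The FAS windows had 216, 243 and 250 exon bases, the window of 250 in exons of FAS and ACTA2. Such windows are thus not all upstream of the whole gene. The kappaB consensus searched was GGGRNNYYCC (R is A or G, Y is C or T, N is any base). It was found in 3 windows, 1 each of CD83, CD86 and FAS, and in 9.96% of all 35116 windows of that length. Another kappaB motif, HGGARNYYCC (H is A, C or T), was found in 1 window, that of ICAM1, and in 8.22% of all windows. As H excludes G, this motif is not a looser form of the consensus, and CD83 had no match to it. The AP-1 motif TGANTCA was in 1 window, of FAS (6.57% of all windows), the EGR1 motif GCGGGGGCG in 2, of CD83 and FAS (4.72%), and neither the FOXO motif TGTTTAC (2.98% of all windows) nor the E-box CACGTG (6.34%) was in any of the 11. The stretches of 30 bases around the kappaB matches follow, as the letters on the plus strand, with the matched bases in capitals. Overlapping matches are joined. A match is a description of letters and was found both in genes that fell at 4 h (ICAM1, CD83) and in genes that rose (CD86, FAS).
ICAM1, chr19:10270924-10270953: gctttagctTGGAAATTCCGgagctgaagc
CD83, chr6:14117628-14117657: ggcggggacgGGGGCGCCCCggcctaagcg
CD83, chr6:14117687-14117716: ctgcccgccGGGGAATCCCCCgggctggcg
CD83, chr6:14117712-14117741: tggcgcgcaGGGAAGTTCCCgaacgcgcgg
CD86, chr3:122077693-122077722: gctccctttGGGGGTTTCCCagggctttac
FAS, chr10:88991264-88991293: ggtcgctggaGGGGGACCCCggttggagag

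For CD80 the window held none of these motifs and no annotated exon, and is shown whole because CD80 was the 1 gene of the 10 that was called higher at each time in the fit of all libraries. It lies at chr3:119559615-119559864 and is written in the direction of the gene, which is on the minus strand.
CD80: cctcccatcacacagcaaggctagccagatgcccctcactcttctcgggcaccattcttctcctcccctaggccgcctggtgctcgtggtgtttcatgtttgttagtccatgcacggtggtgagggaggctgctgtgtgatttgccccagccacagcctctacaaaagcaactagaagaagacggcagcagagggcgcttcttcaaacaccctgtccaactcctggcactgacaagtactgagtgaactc

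ICAM1, the ligand of LFA-1 and a target of NF-kB, had the largest fall of the 10 at 4 h in the fit of all 18 libraries. At 4 h ICAM1 was at 315, 329 and 338 CPM in the 3 copanlisib libraries, against 465, 470.4 and 468 CPM in the 3 DMSO libraries. The groups did not overlap, and all 3 copanlisib libraries lay close together. By edgeR the log2 fold change was −0.51 ± 0.04 (± SE, adjusted p by edgeR = 6.93e-10) and −0.47 with replicate 3 standing alone. At 8 h ICAM1 was at 260.4, 248.8 and 269 CPM in the 3 copanlisib libraries, against 287, 267 and 291 CPM in the 3 DMSO libraries. At 8 h both treatments were lower than at 4 h, and the groups overlapped. This was a log2 fold change of −0.12 ± 0.04 (adjusted p by edgeR = 0.0406), and the call was lost without replicate 1 or 2 of copanlisib or without replicate 1 or 3 of DMSO (adjusted p = 0.0841, 0.224, 0.169 and 0.168). At 12 h ICAM1 was at 328, 317 and 323 CPM in the 3 copanlisib libraries, against 359.6, 358 and 385 CPM in the 3 DMSO libraries. All 3 copanlisib libraries were below the DMSO libraries again, at −0.19 ± 0.04 on the log2 scale (edgeR adjusted p = 0.00157). The drug effect shrank between 4 and 8 h by 0.40 ± 0.06 on the log2 scale (edgeR adjusted p of the difference = 0.000285), and by 0.34 with replicate 3 alone (adjusted p = 0.000866).

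SLAMF1, a self-binding receptor of the SLAM family at contacts between lymphocytes, was lower with copanlisib at each time. At 4 h SLAMF1 was at 399, 388 and 373 CPM in the 3 copanlisib libraries, against 515, 524 and 519 CPM in the 3 DMSO libraries. No library of either treatment overlapped the other. On the log2 scale the difference was −0.43 ± 0.04 (± SE, adjusted p by edgeR = 1.25e-09), and −0.47 with replicate 3 standing alone. At 8 h SLAMF1 was at 310.1, 319 and 319.7 CPM in the 3 copanlisib libraries, against 389, 394 and 383 CPM in the 3 DMSO libraries. At 12 h SLAMF1 was at 458, 470.3 and 462 CPM in the 3 copanlisib libraries, against 569, 549 and 568 CPM in the 3 DMSO libraries. The groups stayed apart at both later times, with log2 fold changes of −0.30 ± 0.04 at 8 h and −0.28 ± 0.04 at 12 h (edgeR adjusted p = 6.11e-07 and 1.73e-06). In DMSO cells SLAMF1 was higher at 12 h than at 4 h, by 0.11 ± 0.04 on the log2 scale (edgeR adjusted p = 0.0126), a call lost without replicate 1 of DMSO at 12 h (adjusted p = 0.0502). The genes whose 3 drug effects lay nearest to those of SLAMF1, by the root mean square difference over the 3 times among 9883 genes, were NAA10 (0.014), POFUT1 (0.018) and IMP4 (0.021).

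CD44, the hyaluronan receptor of leukocytes, fell with copanlisib at 8 and 12 h. At 4 h CD44 was at 117, 114 and 94.2 CPM in the 3 copanlisib libraries, against 97.4, 104 and 98.6 CPM in the 3 DMSO libraries. Replicates 1 and 2 of copanlisib were above all DMSO libraries and replicate 3 below them. The log2 fold change of 0.11 ± 0.06 did not pass (edgeR adjusted p = 0.14). Without replicate 3 of copanlisib it passed at 0.20 (edgeR adjusted p = 0.000185), and with replicate 3 alone it was −0.086. At 8 h CD44 was at 82.4, 88.7 and 85.9 CPM in the 3 copanlisib libraries, against 101, 96.9 and 95.1 CPM in the 3 DMSO libraries. At 12 h CD44 was at 80.8, 81.2 and 75.9 CPM in the 3 copanlisib libraries, against 98.5, 96.2 and 100.05 CPM in the 3 DMSO libraries. At both of these times the groups did not overlap. The log2 fold changes were −0.19 ± 0.06 and −0.31 ± 0.06 (edgeR adjusted p = 0.0171 and 0.000312). The 8 h call was lost without replicate 1 of copanlisib or replicate 1 of DMSO (adjusted p = 0.0824 and 0.0942). The change of the drug effect between 4 and 12 h was −0.42 ± 0.09 (edgeR adjusted p = 0.00162), but −0.23 with replicate 3 alone (adjusted p = 0.0591).

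CD80, a ligand of CD28 and CTLA4 that appears on activated B cells, was the member with the highest mean drug effect. At 4 h CD80 was at 201, 213 and 171 CPM in the 3 copanlisib libraries, against 173, 179.7 and 171 CPM in the 3 DMSO libraries. Replicate 3 of copanlisib was below all 3 DMSO libraries and the other two were above them. Copanlisib differed from DMSO by a log2 fold change of 0.16 ± 0.05 (± SE, adjusted p by edgeR = 0.0196) but −0.03 with replicate 3 alone, and the call was also lost without replicate 1 or 2 of copanlisib, without replicate 1 or 3 of DMSO, or with only the 6 libraries of 4 h in the fit (adjusted p = 0.0842, 0.209, 0.0596, 0.0786 and 0.162). At 8 h CD80 was at 191, 187 and 189 CPM in the 3 copanlisib libraries, against 167, 162 and 160.3 CPM in the 3 DMSO libraries. At 12 h CD80 was at 228, 229 and 228 CPM in the 3 copanlisib libraries, against 178, 176 and 174 CPM in the 3 DMSO libraries. From 8 h on the groups were apart, and the 3 copanlisib libraries at 12 h differed little from each other. The log2 fold changes were 0.22 ± 0.05 at 8 h and 0.38 ± 0.05 at 12 h (edgeR adjusted p = 0.00269 and 4.69e-06). The change of the drug effect between 4 and 12 h just missed the threshold at 0.21 ± 0.08 (edgeR adjusted p = 0.0525) and was 0.40 with replicate 3 alone (adjusted p = 9.73e-06). It passed with DESeq2 (adjusted p = 0.0372), with DESeq2 size factors in edgeR (0.0432), and without replicate 1, 2 or 3 of copanlisib at 4 h (0.0432, 0.0139 and 0.0477). Nearest to CD80 in its 3 drug effects were HARS2 (root mean square difference 0.015), IL16 (0.019) and CHMP4C (0.023). This search and that for SLAMF1 used the 4 h effects with all 3 copanlisib libraries, which for CD80 was 0.16 against −0.03 with replicate 3 alone.

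CD86, the other B7 ligand and the earlier of the pair to appear on activated B cells, rose at 4 h. At 4 h CD86 was at 141, 143 and 119.8 CPM in the 3 copanlisib libraries, against 108, 104 and 101 CPM in the 3 DMSO libraries. Each copanlisib library was above the DMSO libraries, with replicate 3 the lowest of them. By edgeR the log2 fold change was 0.37 ± 0.06 (± SE, adjusted p by edgeR = 8.4e-06), and 0.21 with replicate 3 alone (adjusted p = 0.00586). At 8 h CD86 was at 126, 134 and 127 CPM in the 3 copanlisib libraries, against 129, 131 and 127 CPM in the 3 DMSO libraries. At 12 h CD86 was at 139, 138 and 129 CPM in the 3 copanlisib libraries, against 129.8, 122 and 131 CPM in the 3 DMSO libraries. The groups overlapped at both later times, and neither difference passed, with log2 fold changes of −0.0027 ± 0.06 and 0.084 ± 0.06 (95% intervals −0.12 to 0.11 and −0.03 to 0.20). In DMSO cells CD86 was itself higher at 12 h than at 4 h, by 0.29 ± 0.06 (edgeR adjusted p = 0.000114), whereas in copanlisib cells the same change was 0.0044 ± 0.06 (adjusted p = 0.955). With replicate 3 standing alone at 4 h, the change in copanlisib cells was 0.18 (edgeR adjusted p = 0.0103).

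CD40, which receives T cell help, was lower with copanlisib at 4 h and higher at 12 h. At 4 h CD40 was at 374, 382 and 438 CPM in the 3 copanlisib libraries, against 468, 471 and 484 CPM in the 3 DMSO libraries. All copanlisib libraries lay below the DMSO libraries, replicate 3 nearest to them. This was a log2 fold change of −0.25 ± 0.05 (± SE, adjusted p by edgeR = 0.000224), but −0.11 with replicate 3 alone (adjusted p = 0.107). At 8 h CD40 was at 425, 413 and 423 CPM in the 3 copanlisib libraries, against 420.0, 388 and 407 CPM in the 3 DMSO libraries. At 12 h CD40 was at 510.1, 491 and 501 CPM in the 3 copanlisib libraries, against 412, 430.4 and 456 CPM in the 3 DMSO libraries. The groups overlapped at 8 h and were apart at 12 h. The log2 fold change at 8 h, 0.051 ± 0.05, did not pass, and that at 12 h was 0.21 ± 0.05 (edgeR adjusted p = 0.00197). The drug effect at 12 h exceeded that at 4 h by 0.46 ± 0.07 (edgeR adjusted p = 0.000112), and by 0.32 with replicate 3 alone (adjusted p = 0.000536). This was the largest such change among the 10 genes in the fit of all 18 libraries.

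CD70, the ligand of CD27, passed at 4 h and not at 8 or 12 h. At 4 h CD70 was at 170.2, 192 and 252 CPM in the 3 copanlisib libraries, against 286, 256 and 284 CPM in the 3 DMSO libraries. The 3 copanlisib libraries were below all DMSO libraries, but replicate 3 was close to the lowest of them. On the log2 scale the difference was −0.43 ± 0.08 (± SE, adjusted p by edgeR = 0.00016), and −0.13 with replicate 3 alone (adjusted p = 0.113). At 8 h CD70 was at 219, 217 and 224 CPM in the 3 copanlisib libraries, against 232, 212 and 215 CPM in the 3 DMSO libraries. At 12 h CD70 was at 226, 202 and 211 CPM in the 3 copanlisib libraries, against 213, 212 and 221 CPM in the 3 DMSO libraries. Both later times showed overlapping groups, with log2 fold changes of 0.0012 ± 0.08 and −0.015 ± 0.08 (95% intervals −0.17 to 0.17 and −0.18 to 0.15). The change of the drug effect between 4 and 8 h was 0.43 ± 0.12 (edgeR adjusted p = 0.0126), but 0.38 without replicate 2 of copanlisib at 4 h (adjusted p = 0.055) and 0.12 with replicate 3 alone (adjusted p = 0.444). The change between 4 and 12 h, 0.41 ± 0.12 (edgeR adjusted p = 0.0159), was likewise lost without replicate 2 of copanlisib at 4 h, without replicate 1 of copanlisib at 12 h, or with replicate 3 alone (adjusted p = 0.07, 0.0507 and 0.442).

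FAS, the death receptor of the TNF receptor family, passed at 4 h with replicates 1 and 2 of copanlisib in the fit, and not without them. At 4 h FAS was at 163, 162 and 128 CPM in the 3 copanlisib libraries, against 130.1, 125 and 127 CPM in the 3 DMSO libraries. Replicate 3 of copanlisib lay among the DMSO libraries. Copanlisib differed from DMSO by a log2 fold change of 0.25 ± 0.06 (± SE, adjusted p by edgeR = 0.0028), 0.012 with replicate 3 alone (adjusted p = 0.916), and 0.24 with only the 6 libraries of 4 h in the fit (adjusted p = 0.0605). At 8 h FAS was at 105, 112 and 114 CPM in the 3 copanlisib libraries, against 109, 115 and 109 CPM in the 3 DMSO libraries. At 12 h FAS was at 115, 123 and 120.5 CPM in the 3 copanlisib libraries, against 108, 106 and 109.7 CPM in the 3 DMSO libraries. At 8 h the groups overlapped. At 12 h all copanlisib libraries were above the DMSO libraries, and the log2 fold change of 0.14 ± 0.06 did not pass in the fit of all 18 libraries (edgeR adjusted p = 0.0898) but passed in the fit of the 6 libraries of 12 h (0.15, adjusted p = 0.00325).

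CD69, an early activation antigen that holds back the sphingosine receptor S1PR1, was higher with copanlisib at 12 h. At 4 h CD69 was at 46.9, 41.9 and 37.2 CPM in the 3 copanlisib libraries, against 45.3, 39.6 and 42.6 CPM in the 3 DMSO libraries. The 4 h groups overlapped, with a log2 fold change of −0.011 ± 0.07 (95% interval −0.16 to 0.13), and −0.18 with replicate 3 alone (edgeR adjusted p = 0.0953). At 8 h CD69 was at 35.6, 37.4 and 35.1 CPM in the 3 copanlisib libraries, against 32.6, 34.9 and 32.4 CPM in the 3 DMSO libraries. At 12 h CD69 was at 41.9, 39.9 and 40.8 CPM in the 3 copanlisib libraries, against 32.9, 29.7 and 32.4 CPM in the 3 DMSO libraries. At 8 h the groups were just apart, without passing the test (0.11 ± 0.07, edgeR adjusted p = 0.239). At 12 h they were clearly apart, with a log2 fold change of 0.37 ± 0.07 (± SE, adjusted p by edgeR = 0.000325). In DMSO cells CD69 fell between 4 and 12 h by 0.42 ± 0.07 (edgeR adjusted p = 3.19e-05), while in copanlisib cells the change was −0.041 ± 0.07 (adjusted p = 0.654). The drug effect at 12 h exceeded that at 4 h by 0.38 ± 0.10 (edgeR adjusted p = 0.0123), and by 0.55 with replicate 3 alone (adjusted p = 0.000168).

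CD83, a marker of activated B cells and mature dendritic cells, was lower with copanlisib at 4 h and higher at 12 h. At 4 h CD83 was at 229, 223 and 215 CPM in the 3 copanlisib libraries, against 265, 261 and 259 CPM in the 3 DMSO libraries. The groups were apart, replicate 3 of copanlisib being the lowest library. By edgeR the log2 fold change was −0.23 ± 0.04 (± SE, adjusted p by edgeR = 5.1e-05), and −0.28 with replicate 3 alone (adjusted p = 1.95e-05). At 8 h CD83 was at 161, 165 and 163 CPM in the 3 copanlisib libraries, against 156, 161 and 157 CPM in the 3 DMSO libraries. At 12 h CD83 was at 206, 206 and 199 CPM in the 3 copanlisib libraries, against 179, 180.2 and 192 CPM in the 3 DMSO libraries. At 8 h the groups overlapped, with a log2 fold change of 0.045 ± 0.04 that did not pass. At 12 h they were apart at 0.15 ± 0.04 (edgeR adjusted p = 0.00818), a call that was lost without replicate 1 of DMSO (adjusted p = 0.0578). The drug effect at 12 h exceeded that at 4 h by 0.38 ± 0.06 (edgeR adjusted p = 0.000113), and by 0.42 with replicate 3 alone (adjusted p = 5.15e-06).

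Whether the drug effect changed with time was tested as a signed difference, the log2 fold change at the later time minus that at the earlier one, so a positive value can mean that a fall became smaller. From 4 to 8 h this difference was positive in CD40, CD70, CD83 and ICAM1, which had fallen at 4 h and were nearer to or above DMSO at 8 h. It was negative in CD86, which had risen at 4 h and was called in neither direction at 8 h, and in CD44, which was lower than DMSO at 8 h. These 6 of 10 compare with 19.1% of all genes (9.29% higher, 9.86% lower). With replicate 3 alone, 3 passed against 2.4% of all genes, all with a positive difference, and they were CD80, CD83 and ICAM1. The differences of CD40, CD70, CD86 and CD44 were lost in that fit (adjusted p by edgeR = 0.192, 0.444, 0.091 and 0.52). The genes called by edgeR in the fit of all libraries also passed by DESeq2, as did FAS and SLAMF1 (adjusted p by DESeq2 = 0.0473 and 0.0341). From 8 to 12 h none of the 10 passed by edgeR or DESeq2, while 3 had an unadjusted p under 0.05 by edgeR, and 0.0558% of all genes were called (0.0372% higher). From 4 to 12 h the difference was positive in CD40 and CD83, which changed from lower to higher than DMSO, in CD69, which became higher, and in CD70 and ICAM1, whose falls became smaller. It was negative in CD86 and in CD44, which became lower than DMSO. These 7 of 10 compare with 16.7% of all genes (8.98% higher, 7.69% lower). With replicate 3 alone 6 passed against 5.29% of all genes, all positive, and they were CD40, CD69, CD80, CD83, ICAM1 and SLAMF1, while CD70, CD86 and CD44 were lost. Those called from 4 to 12 h by edgeR in the fit of all libraries again passed by DESeq2, as did CD80 and SLAMF1 (adjusted p by DESeq2 = 0.0372 and 0.0147). These contrasts share the 4 h libraries with the 4 h comparison.

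Most of the 10 genes also differed between the times in DMSO cells. Time cannot be told apart here from any other difference between the libraries of each time. Between 4 and 12 h, 6 of the 10 fell (CD40, CD69, CD70, CD83, ICAM1 and FAS) and 2 rose (CD86 and SLAMF1), against 48.6% of all genes called (23.2% higher, 25.4% lower). The 12 h and 4 h libraries did not overlap in 8 of the 10, against 57.8% of all genes. The fall of CD40, −0.13 ± 0.05 (edgeR adjusted p = 0.0314), was lost without replicate 2 or 3 of DMSO at 4 h, without replicate 1 or 2 of DMSO at 12 h, with no filter, or without strand (adjusted p = 0.0938, 0.104, 0.173, 0.135, 0.125 and 0.0897). The largest fall was that of CD83, by 0.51 ± 0.04 on the log2 scale (edgeR adjusted p = 1.35e-10). Between 4 and 12 h of copanlisib, 3 rose (CD40, CD80 and SLAMF1) and 3 fell (CD83, CD44 and FAS), against 51.9% of all genes (25.6% higher, 26.3% lower). The libraries of both times did not overlap in 6 of the 10, against 51.5% of all genes. With replicate 3 standing alone at 4 h, 4 rose (CD40, CD80, CD86 and SLAMF1) and 2 fell (CD44 and CD70), against 37.4% of all genes, with CD70 at −0.23 (edgeR adjusted p = 0.000884). The falls of CD83 and FAS were lost in that fit (−0.074 and −0.094, adjusted p by edgeR = 0.261 and 0.187), and that of CD83 also with no filter or without replicate 3 of copanlisib at 12 h (0.144 and 0.0516). The 8 h libraries held the lowest group means of CD80, CD83, ICAM1 and SLAMF1 in both treatments, as the plot of CPM by library shows.

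The 4 h calls of the 10 genes split by the GC content of their longest annotated transcripts. The 5 genes with the lowest GC content, CD69 (36.5%), FAS (39.1%), CD80 (42.2%), CD86 (43.4%) and CD44 (45.3%), held the 3 that rose and the 2 that did not pass. The 5 with the highest, SLAMF1 (45.6%), CD83 (47.7%), CD40 (50.3%), ICAM1 (56.9%) and CD70 (60.0%), were the 5 that fell. Among the 5 bins of all genes, numbered from the lowest GC content, CD69 and FAS lay in bin 1 (median 0.12 at 4 h). CD80, CD86 and CD44 lay in bin 2 (0.11), and SLAMF1, CD83 and CD40, which fell, in bin 3 (0.047). ICAM1 lay in bin 4 (−0.052) and CD70 in bin 5 (−0.21). With replicate 3 alone, where the 5 bins of all genes had medians between −0.035 and 0.019, the calls of ICAM1, SLAMF1, CD83 and CD86 remained. The part of GC content in the 4 h results was not tested.

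**Figure D3:**
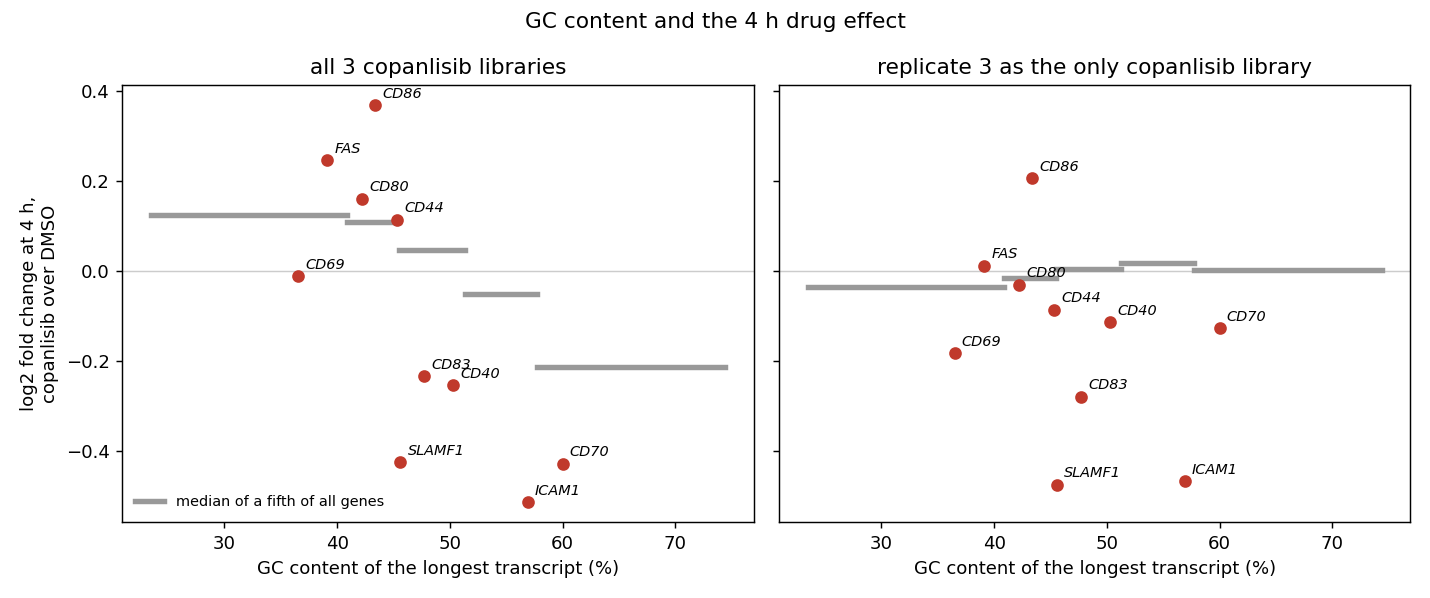
Log2 fold change at 4 h (y axis) against the GC content of the longest annotated transcript in percent (x axis) for the 10 genes, with all 3 copanlisib libraries (left) and with replicate 3 alone (right). Grey lines mark the median of each of 5 equal bins of all genes by GC content: they descend from 0.12 to −0.21 on the left and lie between −0.035 and 0.019 on the right, where ICAM1 and SLAMF1 are still the lowest of the 10 and CD86 the highest.

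Among genes that carry or answer CD40 signals, more fell than rose at each time. Of 16 genes of CD40 signalling and NF-kB feedback (TRAF adaptors, NF-kB subunits and their inhibitors), 11 fell and none rose at 4 h, 8 fell and 3 rose at 8 h, and 8 fell and 2 rose at 12 h. The list's median log2 fold change was −0.45, −0.18 and −0.13 at the 3 times. For this and the following lists, values in parentheses are log2 fold changes ± SE in the order 4, 8 and 12 h. Counts from the fit of all 18 libraries stand beside 17.7%, 14.8% and 13.8% of all genes called higher at these times. Beside the falls stand 20.7%, 18.3% and 16.5% called lower. Counts with replicate 3 alone, that is without replicates 1 and 2 of copanlisib, belong beside the smaller shares of that fit, given with the 4 h calls above. REL, an NF-kB subunit of B cells, fell at each time (−0.92 ± 0.09, −0.78 ± 0.10 and −0.69 ± 0.11). BIRC3, an inhibitor of apoptosis bound to TRAF2, averaged 211 ± 21.2 CPM with copanlisib and 354 ± 19.3 CPM with DMSO at 4 h (SD, n = 3 each) (−0.75 ± 0.05, edgeR adjusted p = 3.57e-11). TRAF1, an NF-kB-induced adaptor, changed by −0.83 ± 0.05 at 4 h and by −0.14 ± 0.05 at 12 h (edgeR adjusted p = 5.7e-13 and 0.0278). Its 12 h call was lost without replicate 2 or 3 of copanlisib or replicate 2 or 3 of DMSO (adjusted p = 0.0757, 0.0962, 0.135 and 0.0603). Without replicates 1 and 2 of copanlisib, 10 of the 16 fell and none rose at 4 h.

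Other receptors of the TNF receptor family mostly fell at 4 h. Of 12 such genes, 8 fell and 1 rose at 4 h, 3 fell and 3 rose at 8 h, and 3 fell and 2 rose at 12 h, with medians of −0.34, −0.0047 and 0.041. The 3 that fell at each time were TNFRSF4 (the receptor OX40) at −1.34 ± 0.11, −0.77 ± 0.11 and −0.81 ± 0.11, TNFRSF18 (GITR) at −1.12 ± 0.12, −0.75 ± 0.12 and −0.58 ± 0.12, and TNFRSF9 (4-1BB) at −0.95 ± 0.09, −0.79 ± 0.09 and −0.70 ± 0.10. At 4 h TNFRSF18 was at −0.62 with replicate 3 alone. With replicate 3 standing alone, 5 of the 12 fell and 2 rose at 4 h.

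Among other costimulatory and coinhibitory ligands, 11 of 13 were measured: 5 fell and 2 rose at 4 h, 5 fell and none rose at 8 h, and 3 fell and 2 rose at 12 h, with medians of −0.098, −0.17 and −0.11. The 4 h count of 7 was 4 without replicate 2 of copanlisib or replicate 1 or 3 of DMSO, and the 12 h count of 5 was 3 without replicate 3 of DMSO. CD274, which encodes the ligand PD-L1 of the inhibitory receptor PD-1, fell at each time (−0.40 ± 0.05, −0.62 ± 0.05 and −0.42 ± 0.06). TNFSF14, the ligand LIGHT, fell as well (−0.28 ± 0.09, −0.50 ± 0.09 and −0.59 ± 0.10), although its 4 h call was lost with replicate 3 alone (−0.31, adjusted p = 0.0937), with no filter, with only the 6 libraries of 4 h, and without replicate 2 of copanlisib or replicate 1 or 3 of DMSO (0.0798, 0.0785, 0.0933, 0.0823 and 0.0501). TNFSF4, the ligand of OX40, fell at 8 and 12 h (−0.38 ± 0.06 and −0.63 ± 0.06). Without replicates 1 and 2 of copanlisib, 4 of the list fell and none rose at 4 h.

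Genes around FAS moved both ways. The list of 12 held genes of the FAS death pathway together with FCMR and the TRAIL receptor genes TNFRSF10A and TNFRSF10B. Of these, 11 were measured. At 4 h 4 rose and 4 fell, at 8 h 3 rose and 2 fell, and at 12 h 3 rose and 3 fell, with medians of 0.077, −0.030 and −0.017. FCMR, the Fc receptor for IgM, rose at each time (0.36 ± 0.07, 0.62 ± 0.07 and 0.65 ± 0.07), as did the initiator caspase gene CASP10 (0.59 ± 0.06, 0.24 ± 0.06 and 0.19 ± 0.06). The 12 h call of CASP10 was lost without replicate 1 or 2 of copanlisib or replicate 1 of DMSO (adjusted p by edgeR = 0.0849, 0.0595 and 0.1). TNFRSF10A, a receptor of the death ligand TRAIL, fell at each time (−0.49 ± 0.08, −0.55 ± 0.08 and −0.58 ± 0.09). With replicate 3 standing alone, 4 rose and 2 fell at 4 h.

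Genes related to ICAM1 and SLAMF1 did not all move the way of these 2 genes. A list of 11 genes held further ICAM family genes, VCAM1, integrin chains that include those of LFA-1, and linkers of CD44 to the cell cortex. Of these, 2 rose and 3 fell at 4 h, and 5 rose and 2 fell at both 8 and 12 h, with medians of 0.030, 0.010 and 0.17. The 4 h count of 5 was 2 without replicate 1 of DMSO, and 3 without replicate 2 or 3 of DMSO or replicate 1 or 2 of copanlisib. VCAM1, a ligand of the integrin VLA-4, rose at 4 and 12 h (0.49 ± 0.08 and 0.54 ± 0.08, and 0.29 at 4 h with replicate 3 alone). Its 8 h value of 0.21 ± 0.08 passed with an edgeR adjusted p of 0.0376 but not with DESeq2, with no filter, or without replicate 2 or 3 of copanlisib or replicate 1 or 3 of DMSO (adjusted p = 0.0577, 0.0626, 0.0724, 0.136, 0.176 and 0.0822). ITGAL, the alpha chain of LFA-1, rose at 8 and 12 h (0.24 ± 0.06 and 0.22 ± 0.06). At 4 h its value of 0.16 ± 0.06 passed narrowly (edgeR adjusted p = 0.0457), and the call was lost without any 1 of the 6 libraries of 4 h (adjusted p between 0.066 and 0.128), and with DESeq2, DESeq2 size factors, no filter, counts without strand or only the 6 libraries of 4 h (0.0757, 0.0509, 0.118, 0.087 and 0.16). ICAM4 rose at 8 and 12 h (0.56 ± 0.17 and 0.81 ± 0.17, the 8 h call being lost without replicate 1 of copanlisib or of DMSO, adjusted p = 0.0529 and 0.0907), and averaged 6.69 ± 0.644 CPM with copanlisib and 3.82 ± 0.37 CPM with DMSO at 12 h (SD, n = 3 each). Of 11 further SLAM family genes and SAP adaptors 7 were measured, and 3 rose and 1 fell at 4 h, 2 rose and 1 fell at 8 h, and 2 rose and 3 fell at 12 h, with medians of 0.18, 0.012 and 0.073. The 8 h count of 3 was 1 without replicate 3 of DMSO, and the 12 h count of 5 was 3 without replicate 3 of copanlisib. SLAMF7 fell like SLAMF1 at each time (−0.41 ± 0.04, −0.58 ± 0.04 and −0.47 ± 0.05), and SLAMF6 rose at each time (0.90 ± 0.21, 0.61 ± 0.18 and 0.67 ± 0.18), its 4 h call being lost with replicate 3 alone and its 8 h call without replicate 3 of DMSO (adjusted p by edgeR = 0.137 and 0.0687). CD244 rose at 4 and 8 h (0.35 ± 0.07 and 0.20 ± 0.07), the 8 h call being lost without replicate 2 or 3 of copanlisib or replicate 2 or 3 of DMSO (adjusted p by edgeR = 0.0848, 0.111, 0.093 and 0.0824). Without replicates 1 and 2 of copanlisib at 4 h, 2 of the ICAM1 list rose and 1 fell, and 1 of the SLAM list rose and 1 fell, at 4 h.

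Of 16 binding partners and regulators of the surface molecules 7 were measured, and 3 rose at 4 h and 4 each at 8 and 12 h, while none fell in the fit of all 18 libraries, with medians of 0.13, 0.32 and 0.29. Without replicate 3 of copanlisib at 4 h, 3 rose and 2 fell at 4 h. MARCHF8, a ubiquitin ligase that removes CD86 and other surface proteins, rose at each time (0.62 ± 0.08, 0.45 ± 0.08 and 0.59 ± 0.09). CD27, the receptor of CD70, rose at 8 and 12 h (0.38 ± 0.06 and 0.47 ± 0.06) and, with replicate 3 alone, at 4 h (0.30, adjusted p by edgeR = 0.000114), and S1PR1, which CD69 holds back, at 4 and 8 h (0.51 ± 0.06 and 0.22 ± 0.06). Of 15 other activation antigens of B cells, 3 rose and 7 fell at 4 h, 2 rose and 5 fell at 8 h, and 3 rose and 5 fell at 12 h, with medians of −0.21, −0.12 and −0.034. SLC3A2, the CD98 heavy chain of amino acid transporters, fell at each time (−0.93 ± 0.06, −0.52 ± 0.06 and −0.62 ± 0.07), and so did the interleukin receptor gene IL21R (−0.61 ± 0.05, −0.28 ± 0.05 and −0.21 ± 0.05). CD38, an ectoenzyme of activated B and plasma cells, rose at each time (0.52 ± 0.11, 0.71 ± 0.10 and 0.82 ± 0.10). With replicate 3 standing alone at 4 h, 4 of the binding partners rose and none fell, and 2 of the activation antigens rose and 4 fell.

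**Figure D4:**
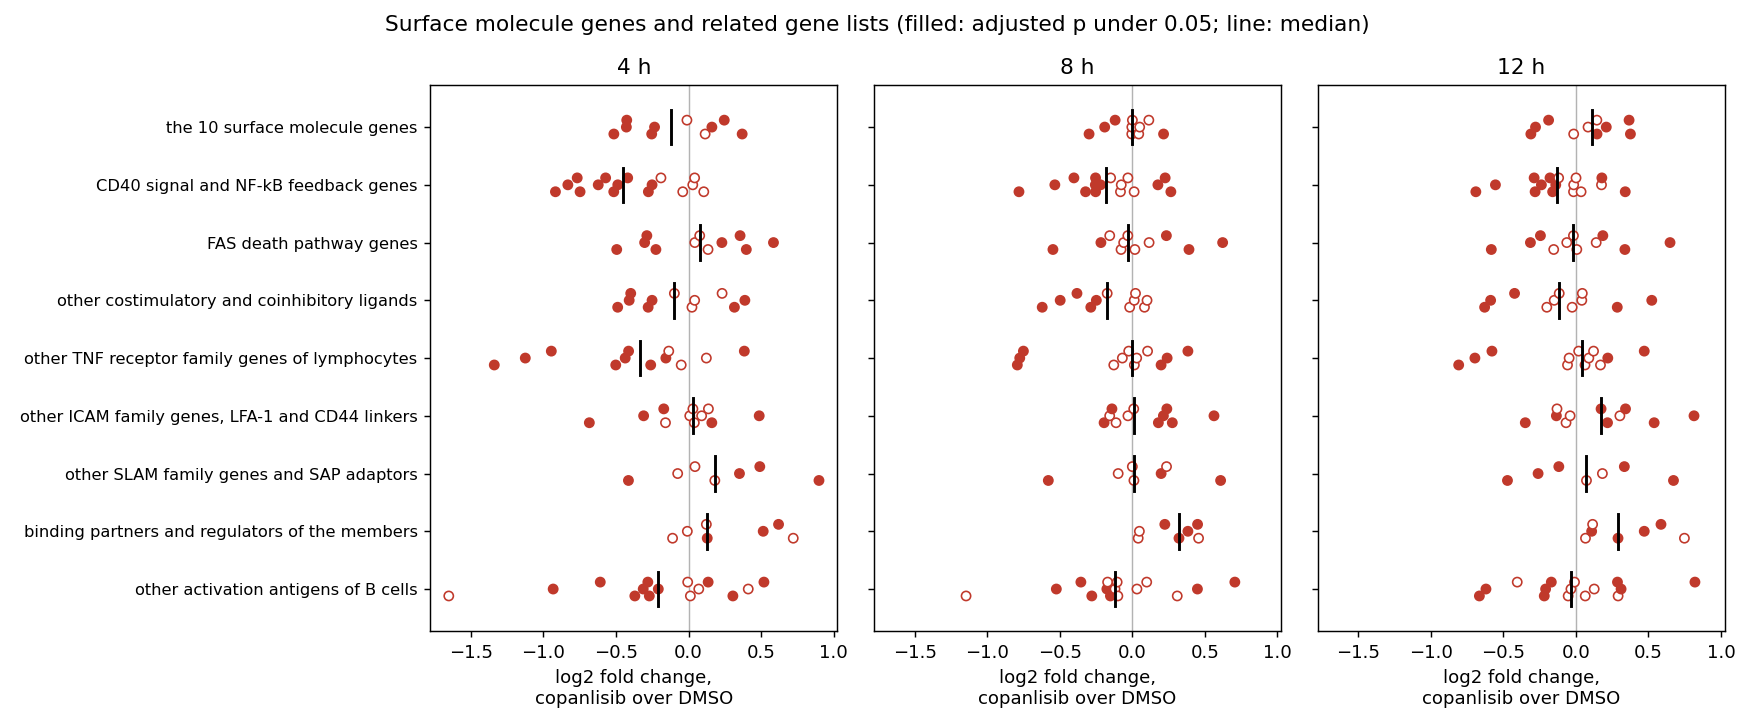
Log2 fold change of copanlisib over DMSO (x axis) for each measured gene of the 9 lists (y axis) at 4, 8 and 12 h. Filled circles passed the test, open circles did not, and black lines are medians, which for CD40 signalling and NF-kB feedback are −0.45, −0.18 and −0.13.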

How the data were processed

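The authors deposited, per library, read counts per gene in 3 columns (without strand and for either strand), in the layout of STAR's gene counts. The submitters' processing notes name CASAVA 1.7, STAR 2.5.2b and the build hg38, while no annotation version is given in the sources used here. The column with 94.3% to 95.3% of the strand-assigned reads was used, and the column without strand was an alternative, since exons of CD80, CD44, ICAM1 and FAS overlap genes on the opposite strand. With strand left out, ICAM1 had 58.5% to 65.2% and CD80 76.0% to 80.5% of its stranded count. Rows that name no gene were left out of library sizes.

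From these counts, edgeR 4.0.16 in R 4.3.3 filtered low counts by group (filterByExpr), scaled by TMM and fitted 1 mean per group over all 18 libraries. Quasi-likelihood tests were adjusted by Benjamini-Hochberg over 16122 genes, with a threshold of 0.05. Standard errors are of the log2 fold change. CPM uses TMM-scaled library sizes. Exon lengths and GC content came from GENCODE 29. The fit was checked on simulated data with the same spread in all libraries. That check therefore does not cover the uneven copanlisib libraries at 4 h or a group with 1 library. DESeq2 1.42.0, DESeq2 size factors, no filter, the replicate number as a block, fits of 6 libraries, leaving out each library, and replicate 3 as the only copanlisib library at 4 h (chosen with earlier results known) were alternatives. In that last fit the lone library is assumed to vary like the other groups. Named genes were the 10 members and, from each list, up to 3 genes called in the most of the 3 drug comparisons, ties going to the larger mean absolute log2 fold change. For the members with the highest and lowest mean drug effect, the 3 nearest genes were named. The members and lists were chosen with earlier results of these data known. Intervals cover only the spread between libraries and counting error.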

Additional observations from a re-analysis of the deposited data

Results flagged for a closer look

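The drug effect of 6 genes differed between 4 and 8 h by a test of the difference itself (edgeR adjusted p under 0.05). The log2 difference, the effect at 8 h minus that at 4 h, was 0.31 for CD40, 0.43 for CD70, 0.28 for CD83 and 0.40 for ICAM1, and −0.37 for CD86 and −0.30 for CD44. Between 4 and 12 h the difference passed for 7 genes. It was 0.46 for CD40, 0.38 for CD69, 0.41 for CD70, 0.38 for CD83 and 0.33 for ICAM1, and −0.29 for CD86 and −0.42 for CD44. Of these, ICAM1 and CD83 passed in both comparisons, and CD40 and CD69 from 4 to 12 h, also with replicate 3 as the only copanlisib library at 4 h.

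Reads on the opposite strand were not used by the comparisons. With FAS left out, their share exceeded the highest DMSO library in 3 copanlisib libraries. Over the 9 genes other than FAS they made up 1.23% of reads in replicate 1 at 4 h, 0.208% in replicate 2 at 4 h and 0.14% in replicate 1 at 8 h, against at most 0.122% in a DMSO library. Which libraries exceeded DMSO depended on FAS. Over all 10 genes the highest DMSO library was at 0.557%. Above it were copanlisib replicate 1 at 4 h (1.51%), replicates 1, 2 and 3 at 8 h (0.653%, 0.628% and 0.635%) and replicates 1 and 2 at 12 h (0.64% and 0.578%). Replicate 2 at 4 h was below it (0.495%).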

How the results depend on the processing

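Of the 19 drug-effect calls of the 10 genes, 122 checks under other settings kept 115, lost 6 and reversed 1, and 114 fits without 1 library kept 103 and lost 11. With replicate 3 alone for copanlisib at 4 h, 4 genes were called at 4 h and 3 in the change from 4 to 8 h, and signs turned for CD80 (−0.030) and CD44 (−0.086) at 4 h, for the change of effect of FAS from 4 to 12 h (0.13), and from 4 to 12 h of copanlisib for CD69 (0.14) and CD70 (−0.23). The call of ICAM1 at 8 h was lost with no filter (adjusted p = 0.186). Other reversals were of values near 0: with no filter, CD86 (0.012) and FAS (0.012) at 8 h and CD44 over time in DMSO (0.0025); without strand, CD69 at 4 h (0.00078) and CD44 over time in DMSO (0.0059); and with 6 libraries, CD70 at 8 h (−0.0019). With only the 6 libraries of 8 h, 11 of the 15 other activation antigens were called at 8 h, against 7 in the fit of all libraries. The share of all genes called in that fit is not given here, so these counts do not single out the list. The causes were not tested.

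Leaving out 1 library, 7 to 9 of the 10 genes were called at 4 h, 2 to 4 at 8 h and 6 to 7 at 12 h. The count of 2 at 8 h came without replicate 1 of either treatment. In the same fits 4903 to 7857 of all genes were called at 4 h, 4312 to 4501 at 8 h and 3909 to 4135 at 12 h. In the changes of effect from 4 to 8, 8 to 12 and 4 to 12 h, 5 to 7, 0 and 6 to 10 of the 10 were called. Counts over all genes for these changes are given below. Results whose sign turned ranged from −0.10 to 0.070 for CD69 and −0.25 to 0.21 for ICAM4 at 4 h. At 8 h they ranged from −0.024 to 0.050 for CD70, −0.025 to 0.014 for CD86 and −0.031 to 0.029 for FAS, and at 12 h from −0.061 to 0.019 for CD70. Changes of effect ranged from −0.033 to 0.12 for CD80 (8 minus 4 h) and −0.064 to 0.018 for CD70 (12 minus 8 h). Between 4 and 12 h of copanlisib the ranges were −0.12 to 0.040 for CD69, −0.065 to 0.23 for CD70, −0.072 to 0.051 for CD86 and −0.055 to 8.0e-05 for ICAM1. Between 4 and 12 h of DMSO they were −0.0025 to 0.047 for CD80 and −0.044 to 0.018 for CD44.

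The replicate numbers did not pair the libraries: the 45 same-numbered pairs had correlations of −0.0901 to 0.101 (median −0.000463) in their deviations from the group means, and 90 other pairs −0.0831 to 0.0961. With the replicate block, 8, 4 and 7 genes were called at 4, 8 and 12 h, the change of effect of CD80 from 4 to 12 h passed (0.22, edgeR adjusted p = 0.0394), and CD70 at 8 h turned sign (−0.00017). Over all genes, the change from 8 to 12 h called 9 genes with all libraries, 35 with no filter, 26 by DESeq2, 5 without strand and 0 to 5 on leaving out 1 library. That from 4 to 8 h called 3086 (1650 to 6353 on leaving out 1 library, 409 with replicate 3 alone), and that from 4 to 12 h 2688 (1596 to 5781, and 900).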
